A study of Homo sapiens with 12 samples.

Results

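The genes described here carry glucose from the plasma membrane to lactate, to the mitochondrial gate at pyruvate dehydrogenase, and into and out of glycogen. They were 38 genes of the 78932 in the deposited tables, chosen by symbol from a list ordered by step and isoenzyme. The list was chosen with earlier results of these data known. Each symbol occurred on 1 row. Of the 38, 37 had enough counts to be tested, and the exception was HK3, a hexokinase that stayed at or below 0.755 CPM in every library. CPM here is a count scaled to its library's total, after TMM factors that adjust that total for differences in composition.

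The cells were THP-1, an established human line from an acute monocytic leukaemia, and 12 libraries of messenger RNA fell into 4 groups of 3. The CEL group received LPS, ATP, cyclosporin A, eltrombopag and luspatercept. The CE group received LPS, ATP, cyclosporin A and eltrombopag. The LPS group received LPS and ATP, which model pyroptosis, an inflammatory cell death, and the NC group was the untreated control. LPS is a bacterial cell wall component, cyclosporin A inhibits calcineurin, eltrombopag activates the thrombopoietin receptor and binds iron, and luspatercept traps ligands of the activin receptor. All 3 treated groups therefore carried LPS and ATP, and the sources used here state no doses or times. A single leukaemia line stands for monocytes, and nothing in the labels says that the libraries of a group came from separate cultures.

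Glycolysis splits glucose into pyruvate and yields a little ATP without oxygen. Lactate dehydrogenase then turns pyruvate into lactate and restores the oxidised cofactor, or the mitochondrial pyruvate carrier and pyruvate dehydrogenase pass it on as acetyl-CoA. Several steps have isoenzymes that differ in regulation and tissue, and many of their genes are known targets of hypoxia-inducible factor, which binds short DNA motifs with the core ACGTG or GCGTG. Activated macrophages are known to raise glucose uptake and lactate output, and glycogen serves them as a further store of glucose.

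Total counts ran from 17737240 to 23183474 per library, and the 38 genes held 1.52 to 1.59% of them in CEL, 1.28 to 1.34% in CE, 1.01 to 1.13% in LPS and 1.00 to 1.11% in NC. Monocytic markers were present in every library, and the summed level of the 10 marker genes was 399 to 427 CPM in CEL, 427 to 591 in CE, 800 to 820 in LPS and 863 to 903 in NC. The highest single value among markers of other cell types was 6.81 CPM, for a T and NK cell marker. Among the monocytic markers the highest single value was 614 CPM, so their sum can rest on few genes. The part of the lower sum in CE and CEL in the results that follow was not tested. In these bulk libraries fewer cells expressing a gene and less RNA of it per cell cannot be told apart.

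Library CE 2 stood apart from CE 1 and CE 3 in genes rich in G and C. Its excess over the other two CE libraries had a median of 1.28 on the log2 scale among genes whose transcripts exceed 60% GC, 0.81 between 55 and 60%, and -0.12 at 40% or below. Among the members the difference between CE 2 and the mean of CE 1 and CE 3 was 3.70 for PFKL, 3.14 for GYS1, 2.18 for SLC16A3, 1.34 for PFKFB3, 1.07 for SLC2A1, 0.91 for PFKP, 0.78 for PFKFB4 and 0.72 for HK2, all on the log2 scale. Comparisons with CE for these 8 genes are therefore given with and without that library where a call rests on it. CEL 1 and LPS 3 leaned the same way. Across 13247 tested genes, which are not independent, a library's deviation from the other 2 of its group correlated with GC content at r = 0.33 in CEL 1, 0.52 in CE 2 and 0.39 in LPS 3. In CEL 1 the deviation was 1.03 for GYS1, 0.55 for PFKFB3, 0.53 for SLC2A1 and 0.50 for PFKP, and in LPS 3 it was 1.35 for PFKL and 1.04 for GYS1. The columns for CE were matched to the labels as the remaining treated group.

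**Figure D1:**
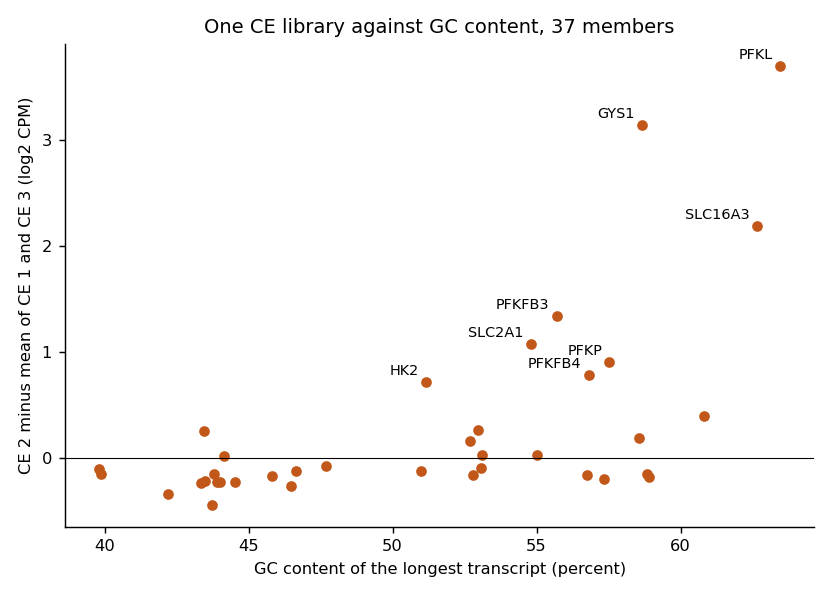
Level in library CE 2 minus the mean of CE 1 and CE 3 (log2 CPM, vertical axis) against the GC content of the gene's longest transcript (percent, horizontal axis). Each point is 1 of the 37 tested members, the 8 genes listed in the text carry their names, and PFKL at 3.70 and GYS1 at 3.14 lie highest.

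The windows shown are the 250 bases upstream of the start site for genes on which the results turn: 4 that rose in both drug-treated groups over LPS (ENO2, ALDOC, LDHA and GBE1) and 2 that fell (LDHB and PYGL). They come from RefSeq on GRCh38.p14, 35 of the 38 members had such windows, and capitals mark ACGTG or GCGTG on either strand. Where CACGTG occurs, it holds ACGTG on both strands and counts as overlapping matches.
ENO2, chr12:6914330-6914579, plus strand: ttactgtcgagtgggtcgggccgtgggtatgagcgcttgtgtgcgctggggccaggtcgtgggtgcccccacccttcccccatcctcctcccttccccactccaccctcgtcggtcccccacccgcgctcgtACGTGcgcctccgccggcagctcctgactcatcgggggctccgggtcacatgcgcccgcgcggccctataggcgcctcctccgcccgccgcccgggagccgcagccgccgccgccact
ALDOC, chr17:28576896-28577145, minus strand: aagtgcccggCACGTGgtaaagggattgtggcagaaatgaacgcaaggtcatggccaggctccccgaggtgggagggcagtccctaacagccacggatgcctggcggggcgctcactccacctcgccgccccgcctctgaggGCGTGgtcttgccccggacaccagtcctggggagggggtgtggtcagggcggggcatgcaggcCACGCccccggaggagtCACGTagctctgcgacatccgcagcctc
LDHA, chr11:18394313-18394562, plus strand: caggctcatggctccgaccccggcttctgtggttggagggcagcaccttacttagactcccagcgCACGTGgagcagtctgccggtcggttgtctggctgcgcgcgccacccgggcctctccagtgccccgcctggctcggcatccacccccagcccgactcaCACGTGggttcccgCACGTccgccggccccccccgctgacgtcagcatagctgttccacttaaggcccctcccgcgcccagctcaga
GBE1, chr3:81761646-81761895, minus strand: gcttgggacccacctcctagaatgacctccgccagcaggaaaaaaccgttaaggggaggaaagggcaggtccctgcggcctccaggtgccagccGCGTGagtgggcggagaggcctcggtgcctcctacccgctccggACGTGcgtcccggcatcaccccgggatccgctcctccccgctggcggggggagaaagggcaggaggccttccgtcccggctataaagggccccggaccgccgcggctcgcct
LDHB, chr12:21657843-21658092, minus strand: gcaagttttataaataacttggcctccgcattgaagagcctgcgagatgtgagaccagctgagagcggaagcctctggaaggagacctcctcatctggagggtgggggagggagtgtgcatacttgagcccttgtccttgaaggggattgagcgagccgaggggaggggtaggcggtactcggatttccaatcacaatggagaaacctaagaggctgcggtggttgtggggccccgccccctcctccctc
PYGL, chr14:50944484-50944733, minus strand: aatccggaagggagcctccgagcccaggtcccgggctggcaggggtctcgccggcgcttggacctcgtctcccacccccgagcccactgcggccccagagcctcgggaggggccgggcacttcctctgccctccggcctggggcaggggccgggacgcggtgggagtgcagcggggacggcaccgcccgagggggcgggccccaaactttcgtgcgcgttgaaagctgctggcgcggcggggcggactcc
The printed windows of LDHA and ALDOC held 5 matches each, that of GBE1 held 2, that of ENO2 held 1, and those of LDHB and PYGL held none of these letters. LDHA has a second window, at chr11:18396101-18396350, with 1 match. Matches did not follow direction in other members. The windows of PGM2, PDHA1 and FBP1, which fell in both drug-treated groups over LPS, held 4, 3 and 1. That of PKM and all 3 of MPC2, which rose in both, held none. Over all windows of the members, 55.4% of 65 held either motif, against 54.2% of 14607 windows of tested genes and 43.2% of all 35116. ACGTG alone was in 35.4% of the members' windows and in 22.3% of those of tested genes, and GCGTG in 35.4% and 42.7%. CACGTG was in 12.3% and 7.98%. Counted by gene, 80% of the 35 members held either motif in some window, against 47.4% of all 27305 genes. For ACGTG these shares were 57.1% and 21.7%. A gene with more windows has more room for a match, and the share by gene was not taken for tested genes alone. The median GC content of the windows was 69.6% for members and 63.6% for tested genes, and a match is a string of letters, not a measured site.

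LPS with ATP moved the pathway in both directions, with glucose entry, hexokinase and pyruvate kinase up and glycogen phosphorylase down. The words rose, fell and changed are kept for an edgeR adjusted p under 0.05. In LPS over NC 11 members rose, 13 fell and 13 did not pass, where 45.9% of all tested genes were called, 22.4% as higher and 23.5% as lower. With a GC offset, added after the data were seen, 12 rose and 8 fell. The members' median change was 0.07 and that of all tested genes -0.01 on the log2 scale. For 30 of the 37 tested members the LPS and NC libraries had no overlap, against 62.5% of all tested genes.

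With cyclosporin A and eltrombopag, GPI, both aldolases, TPI1, GAPDH, PGK1, both enolases, PKM and LDHA rose over LPS alone, PGAM1 fell, and no phosphofructokinase gene passed. Of these calls, those of TPI1, ENO1 and PGAM1 were lost in 11, 10 and 6 of 15 other settings. In CE over LPS 18 members rose, 7 fell and 12 did not pass, where 49.6% of all genes were called, 28.8% as higher and 20.7% as lower. The split was 14 higher and 10 lower with upper quartile scaling and 14 and 8 with library size alone, and these scalings shifted the all-gene median by -0.17 and -0.15. The members' median change was 0.28, against 0.08 over all genes. Groups did not overlap for 25 of the 37, against 54.6% of all genes.

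With luspatercept as well, GPI, both aldolases, TPI1, GAPDH, PGK1, both enolases, PKM and LDHA again rose over LPS alone, with ENO2, ALDOC, SLC2A3 and GBE1 the farthest. The call of TPI1 was lost in 5 of 15 other settings. In CEL over LPS 19 members rose, 7 fell and 11 did not pass, against 55.9% of all genes called, 28.7% higher and 27.2% lower. Upper quartile scaling gave 17 higher and 10 lower and shifted the all-gene median by -0.13. The members' median change was 0.32, and that of all genes was -0.03. Of these members, 10 rose and 2 fell by at least 2-fold, against 8.72% and 12.2% of all genes. In CE over LPS 3 rose and 3 fell by that much, against 7.08% and 7.44% of all genes. Groups did not overlap for 29 of the 37, against 65.5% of all genes.

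The addition of luspatercept itself was tested as CEL over CE, where ENO2, BPGM, GBE1 and LDHA were among the genes that rose and PYGL fell. In all 12 members rose, 2 fell and 23 did not pass, against 23.6% of all genes called, 8.78% higher and 14.8% lower. The members' median change was 0.13, and that of all genes was -0.09. Groups did not overlap for 17 of 37 members, against 34.7% of all genes. With the labels' batch number as a block, 10 rose and 1 fell: GPI, PGM1 and PDHA1 no longer passed (edgeR adjusted p = 0.0699, 0.0524 and 0.0697 with the block). A limma test on log2(TPM + 1) called only 2 of the rises, ENO2 and BPGM, and 0 falls. In each comparison named in the report, every member called had the same direction in all 3 batches. Where groups do not overlap, any pairing of their libraries gives that result, so it adds no separate support to the calls.

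**Figure D2:**
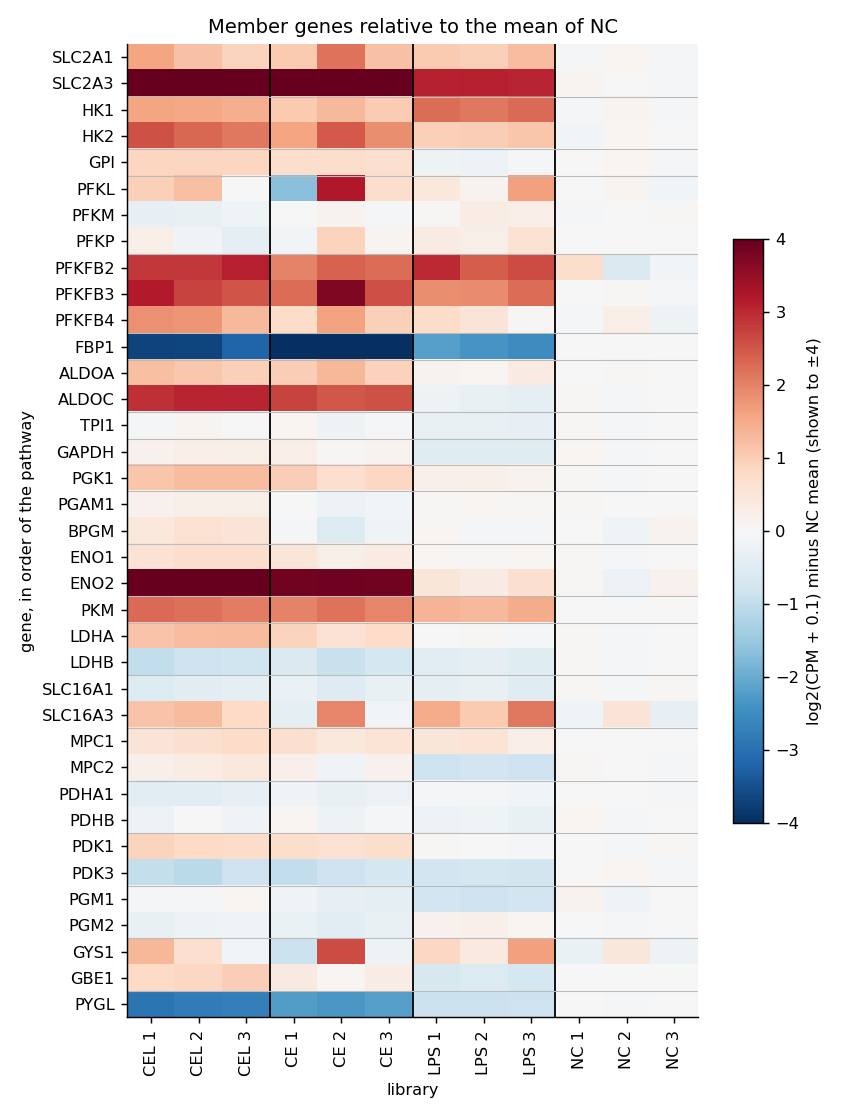
Level of each member in each of the 12 libraries, as log2(CPM + 0.1) minus the gene's mean in NC (colour, shown to ±4), with genes down the page by step and libraries across in the order CEL, CE, LPS and NC. ENO2, ALDOC and SLC2A3 are highest in the CEL and CE columns, while PYGL and FBP1 are highest in the NC columns.

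Glucose enters these cells through SLC2A1 (GLUT1) and SLC2A3 (GLUT3), of which GLUT3 has the higher affinity for glucose. SLC2A3 had 89.8, 92.4 and 100.4 CPM in CEL, 101.0, 84.9 and 90.8 in CE, 32.7, 32.9 and 31.9 in LPS, and 4.03, 3.70 and 3.54 in NC. Both drug-treated groups lay above LPS, and LPS lay far above NC. The gene, on chromosome 12 at 7919230 to 7936275 of hg38, rose by 3.11 ± 0.08 (log2, approximate SE) in LPS over NC (edgeR adjusted p = 8.58e-11), an 8.62-fold difference, and by a further 1.51 ± 0.07 in CE over LPS (edgeR adjusted p = 3.56e-08). CEL over CE was 0.03 ± 0.07 (edgeR adjusted p = 0.808). Reads can be shared with the near-identical SLC2A14, which had at most 6.19 counts per treated library and 23.6 to 31.7 per NC library. SLC2A14 averaged 1.36 CPM in NC and 0.154 in LPS, and fell in LPS over NC (edgeR adjusted p = 0.000117). Its NC level is not small beside that of SLC2A3 in NC. The part of shared reads in the rise of SLC2A3 over NC was not tested.

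SLC2A1 had 174, 133 and 109 CPM in CEL, 121, 265 and 131 in CE, 120, 113 and 138 in LPS, and 56.7, 62.3 and 56.8 in NC. All treated libraries were above the NC libraries, and the 3 treated groups overlapped, with CE 2 the highest of all. It rose by 1.08 ± 0.27 in LPS over NC (edgeR adjusted p = 0.00647). CE over LPS was 0.48 ± 0.26 (edgeR adjusted p = 0.159), and 0.04 without CE 2.

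Hexokinase traps glucose in the cell as glucose 6-phosphate. HK1, the widespread form, had 68.3, 66.5 and 62.2 CPM in CEL, 47.4, 56.1 and 46.1 in CE, 108, 99.2 and 111 in LPS, and 22.1, 24.6 and 22.0 in NC. LPS was highest, both drug-treated groups came down part of the way towards NC, and no groups overlapped. It rose by 2.21 ± 0.09 in LPS over NC (edgeR adjusted p = 2.49e-09) and fell by 1.09 in CE over LPS, with a standard error of 0.08 (edgeR adjusted p = 1.03e-06). CEL over LPS was -0.69 ± 0.08 (edgeR adjusted p = 2.57e-05), and CEL over CE was 0.40 ± 0.08 (edgeR adjusted p = 0.0054).

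HK2, the form induced by hypoxia and growth signals, went the other way under the drugs. It had 138, 118 and 104 CPM in CEL, 71.7, 129 and 86.3 in CE, 46.5, 47.5 and 51.7 in LPS, and 22.1, 25.2 and 24 in NC. The drug-treated libraries were all above the LPS libraries, which were all above the NC libraries, and CEL and CE overlapped. HK2 rose by 1.03 ± 0.18 in LPS over NC (edgeR adjusted p = 0.000797), by 0.98 ± 0.18 in CE over LPS (edgeR adjusted p = 0.000834), and by 1.30 ± 0.18 in CEL over LPS (edgeR adjusted p = 8.4e-05). Without CE 2 the value in CE over LPS was 0.71, and CEL over CE was 0.59 (edgeR adjusted p = 0.00424), where it was 0.32 (edgeR adjusted p = 0.232) with all libraries.

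Glucose phosphate isomerase, GPI, converts glucose 6-phosphate to fructose 6-phosphate. It had 260, 260 and 257 CPM in CEL, 234, 234 and 226 in CE, 124, 121 and 136 in LPS, and 142, 151 and 137 in NC. It rose by 0.86 ± 0.05 in CE over LPS (edgeR adjusted p = 9.79e-08) and by 1.03 ± 0.05 in CEL over LPS (edgeR adjusted p = 1.72e-08). In LPS over NC it fell by 0.17, with a standard error of 0.05 (edgeR adjusted p = 0.0131), which was lost without NC 2 (adjusted p = 0.071), LPS 1 (adjusted p = 0.0581) or LPS 2 (adjusted p = 0.0785).

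**Figure D3:**
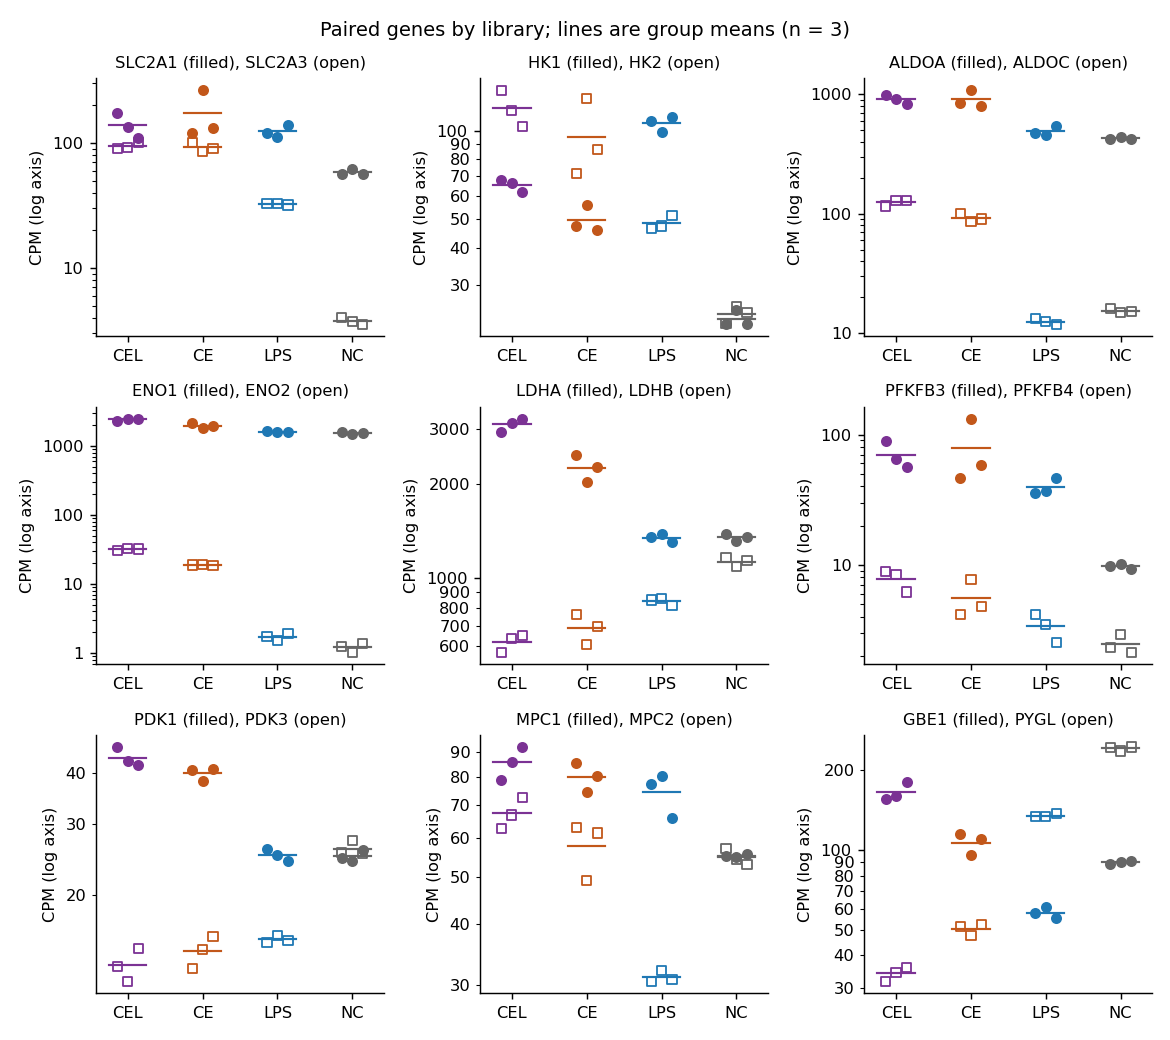
CPM of paired genes in each library (filled and open points, log axis) and the group mean (line, n = 3), for CEL, CE, LPS and NC from left to right. HK1 is highest in LPS and HK2 in CEL and CE, LDHA is higher and LDHB lower in the drug-treated groups than in LPS, and GBE1 and PYGL run in opposite directions between the drug-treated groups and LPS.

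The committed step of glycolysis is phosphofructokinase, and of its genes only PFKM passed in the main fit, in 1 comparison. PFKP, the platelet form, had 67.6, 52.3 and 43.9 CPM in CEL, 53.1, 108 and 61.9 in CE, 72.4, 68.1 and 87.8 in LPS, and 57.0, 58.5 and 57.1 in NC, and no comparison passed. CEL over LPS was -0.48 (edgeR adjusted p = 0.106), and without CEL 1 it was -0.63 (edgeR adjusted p = 0.0421). PFKP passed there in 5 of 15 other settings, among them DESeq2 and the GC offset. With the GC offset or without the low-count filter it also passed as higher in LPS over NC and CE over NC. In those 2 settings it passed as lower in CEL over CE. PFKM, the muscle form, lay between 3.29 and 5.16 CPM throughout and fell by 0.47 in CEL over LPS, with a standard error of 0.13 (edgeR adjusted p = 0.00787). That call was lost in 3 of 15 other settings, both limma fits and no low-count filter. PFKL, the liver form, had at most 1.38 CPM outside CE 2, where it had 4.24, and passed in no comparison.

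The PFKFB enzymes make or remove fructose 2,6-bisphosphate, the strongest activator of phosphofructokinase, and PFKFB3 is the form with mainly kinase activity. PFKFB3 had 88.6, 64.8 and 56.3 CPM in CEL, 46.5, 132 and 58.8 in CE, 35.8, 36.7 and 46.7 in LPS, and 9.84, 10.1 and 9.36 in NC. NC lay well below every treated library, CE overlapped LPS, and the CEL libraries lay above the LPS libraries. CEL over LPS was 0.82 and did not pass, but it passed in 4 of 15 other settings. The gene rose by 2.02 ± 0.34 in LPS over NC (edgeR adjusted p = 0.000552). CE over LPS was 1.00 ± 0.32 (edgeR adjusted p = 0.0241), and without CE 2 it was 0.42 (edgeR adjusted p = 0.0712). Without LPS 1 or LPS 2 the adjusted p was 0.0782 or 0.0725, with the gene at 0.93 or 0.90.

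PFKFB2 rose by 2.85 ± 0.34 in LPS over NC (edgeR adjusted p = 3.87e-05), from low counts: it had 2.86, 2.91 and 3.49 CPM in CEL, 1.57, 2.07 and 1.88 in CE, 3.19, 2.13 and 2.49 in LPS, and 0.581, 0.183 and 0.285 in NC. PFKFB4, a hypoxia-inducible form, had 8.92, 8.42 and 6.18 CPM in CEL, 4.13, 7.70 and 4.77 in CE, 4.13, 3.50 and 2.53 in LPS, and 2.33, 2.92 and 2.11 in NC. Its CEL libraries were all above its LPS libraries, and it rose by 1.21 ± 0.27 in CEL over LPS (edgeR adjusted p = 0.00218). Its call in CE over LPS (0.71 ± 0.27, edgeR adjusted p = 0.0444) was lost without CE 2 (0.41, adjusted p = 0.156), CE 3 (adjusted p = 0.0575), LPS 2 (adjusted p = 0.0916) or LPS 3 (adjusted p = 0.151). Its CEL over CE was 0.50 (edgeR adjusted p = 0.198), and without CE 2 it was 0.81 (edgeR adjusted p = 0.0227).

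FBP1, the fructose bisphosphatase that runs this step backwards in gluconeogenesis, fell with LPS and fell again with cyclosporin A and eltrombopag. It had 0.390, 0.401 and 0.591 CPM in CEL, 0.0984, 0.144 and 0.241 in CE, 1.28, 1.14 and 1.02 in LPS, and 6.23, 6.30 and 6.28 in NC. The groups did not overlap, with CE lowest. FBP1 fell by 2.45 in LPS over NC, with a standard error of 0.22 (edgeR adjusted p = 3.93e-06), and by 2.78 in CE over LPS, with a standard error of 0.29 (edgeR adjusted p = 1.13e-05). The counts in CE were few, at 2, 3 and 5 per library, and its rise in CEL over CE (1.47 ± 0.32, edgeR adjusted p = 0.0165) was lost without CE 1 (adjusted p = 0.0623) or CEL 3 (adjusted p = 0.0943).

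Aldolase splits the 6-carbon sugar into triose phosphates. ALDOA, the muscle and red cell form, was the abundant aldolase, with 993, 910 and 830 CPM in CEL, 839, 1081 and 802 in CE, 472, 452 and 540 in LPS, and 425, 440 and 418 in NC. The drug-treated libraries lay above all LPS and NC libraries. ALDOA rose by 0.89 ± 0.11 in CE over LPS (edgeR adjusted p = 4.26e-05) and by 0.90 ± 0.11 in CEL over LPS (edgeR adjusted p = 3.1e-05).

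ALDOC, the brain form, changed far more from a lower level. It had 116, 128 and 129 CPM in CEL, 101, 85.5 and 90.2 in CE, 13.2, 12.4 and 11.9 in LPS, and 16, 14.9 and 15.1 in NC. No groups overlapped, with CEL highest and LPS lowest. The gene, on chromosome 17 at 28573115 to 28577264 of hg38, was 7.38-fold higher in CE over LPS (2.88 ± 0.08, edgeR adjusted p = 6.61e-10) and 9.93-fold higher in CEL over LPS (3.31 ± 0.08, edgeR adjusted p = 1.43e-10). CEL over CE was 0.43 ± 0.07 (edgeR adjusted p = 0.00151). With the GC offset CEL over CE was 0.48 (edgeR adjusted p = 0.156).

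The next 2 enzymes, triose phosphate isomerase (TPI1) and glyceraldehyde 3-phosphate dehydrogenase (GAPDH), fell in LPS over NC. Both rose over LPS in the drug-treated groups, though the calls of TPI1 depended on the processing. GAPDH had 2244, 2376 and 2344 CPM in CEL, 2400, 2056 and 2168 in CE, 1427, 1404 and 1420 in LPS, and 2098, 1894 and 1958 in NC. LPS lay below every other library. GAPDH, often used to normalise other genes, fell by 0.49 in LPS over NC, with a standard error of 0.07 (edgeR adjusted p = 0.00011), and rose by 0.64 ± 0.07 in CE over LPS (edgeR adjusted p = 1.05e-05). The fall in LPS over NC was -0.59 with the GC offset (edgeR adjusted p = 0.0879) and -0.33 in limma on log2(TPM + 1) (adjusted p = 0.203).

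TPI1 had 418, 460 and 429 CPM in CEL, 453, 373 and 407 in CE, 351, 347 and 346 in LPS, and 441, 417 and 434 in NC. It fell by 0.31 in LPS over NC, with a standard error of 0.06 (edgeR adjusted p = 0.00219). That call was lost in 4 of 15 other settings, among them the GC offset and both limma fits. In CE over LPS the rise of TPI1 was 0.24 ± 0.06 (edgeR adjusted p = 0.00845), near the shift that upper quartile scaling makes in all genes. It was lost in 11 of 15, among them DESeq2 and library size alone. It was also lost without LPS 2 (adjusted p = 0.0885), CE 1 (adjusted p = 0.132) or CE 3 (adjusted p = 0.0838). The rise of TPI1 in CEL over LPS, 0.32, was lost in 5 of 15.

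Phosphoglycerate kinase, PGK1, makes the first ATP of the pathway. It had 1627, 1773 and 1776 CPM in CEL, 1475, 1199 and 1344 in CE, 875, 873 and 836 in LPS, and 783, 720 and 759 in NC. The order was the same in every library, CEL above CE above LPS above NC. PGK1 rose by 0.64 ± 0.07 in CE over LPS (edgeR adjusted p = 2.42e-05), by 1.00 ± 0.07 in CEL over LPS (edgeR adjusted p = 4.76e-07) and by 0.37 ± 0.07 in CEL over CE (edgeR adjusted p = 0.00404). LPS over NC was 0.19 (edgeR adjusted p = 0.052).

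The phosphoglycerate mutase step separated CEL from CE. BPGM, which makes the 2,3-bisphosphoglycerate known from red cells, had 28.4, 32.2 and 30.3 CPM in CEL, 20, 14.2 and 18.7 in CE, 22.4, 19.8 and 19.9 in LPS, and 21.4, 18.7 and 23.1 in NC. CEL alone stood above the rest. It rose by 0.78 ± 0.12 in CEL over CE (edgeR adjusted p = 0.00103), and CE over LPS was -0.23 ± 0.12 (edgeR adjusted p = 0.156). PGAM1, the main mutase, lay between 514 and 710 CPM in all libraries and rose by 0.33 ± 0.05 in CEL over CE (edgeR adjusted p = 0.000821). PGAM1 fell by 0.18 in CE over LPS (edgeR adjusted p = 0.0128), a call lost in 6 of 15 other settings, among them without LPS 2 (adjusted p = 0.102) or CE 3 (adjusted p = 0.0791). Its rise of 0.15 in CEL over LPS (edgeR adjusted p = 0.0236) was lost in 13 of 15, among them without LPS 1, LPS 2 or any CEL library (adjusted p = 0.0572 to 0.0863).

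Enolase gave the largest rise of all members over LPS in both drug-treated groups. ENO2, the neuronal form, on chromosome 12 at 6913745 to 6923698 of hg38, had 30.6, 33.0 and 32.0 CPM in CEL, 18.8, 19.1 and 18.6 in CE, 1.72, 1.51 and 1.91 in LPS, and 1.25, 1.00 and 1.37 in NC. The 3 libraries of each drug-treated group lay close together and far above LPS. ENO2 was 10.9-fold higher in CE over LPS (3.45 ± 0.11, edgeR adjusted p = 2.09e-09) and 18.5-fold higher in CEL over LPS (4.21 ± 0.11, edgeR adjusted p = 2.92e-10). CEL over CE was 0.76 ± 0.10 (edgeR adjusted p = 0.000225), a 1.69-fold difference. The rise in LPS over NC (0.51 ± 0.13, edgeR adjusted p = 0.0341) was lost without NC 1, NC 2, LPS 1 or LPS 3, with adjusted p = 0.0605, 0.165, 0.0635 and 0.137.

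ENO1, the widespread enolase, had 2309, 2481 and 2494 CPM in CEL, 2131, 1795 and 1928 in CE, 1624, 1598 and 1610 in LPS, and 1587, 1477 and 1537 in NC. It rose by 0.59 ± 0.07 in CEL over LPS (edgeR adjusted p = 1.59e-05). CE over LPS was 0.28 ± 0.07 (edgeR adjusted p = 0.00496), a call lost in 10 of 15 other settings, among them without LPS 2 (adjusted p = 0.0665), CE 1 (adjusted p = 0.0734) or CE 3 (adjusted p = 0.0577).

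Pyruvate kinase, PKM, which makes pyruvate and ATP, rose at both stages. It had 2091, 2017 and 1818 CPM in CEL, 1743, 1951 and 1674 in CE, 1123, 1075 and 1228 in LPS, and 431, 444 and 434 in NC. LPS stood well above NC, and the drug-treated libraries stood above LPS. PKM rose by 1.39 ± 0.08 in LPS over NC (edgeR adjusted p = 5.03e-08) and by 0.65 ± 0.08 in CE over LPS (edgeR adjusted p = 2.6e-05). CEL over CE was 0.14 ± 0.08 (edgeR adjusted p = 0.209). The table gives 1 value per gene, so the PKM1 and PKM2 splice forms were not analysed here.

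**Figure D4:**
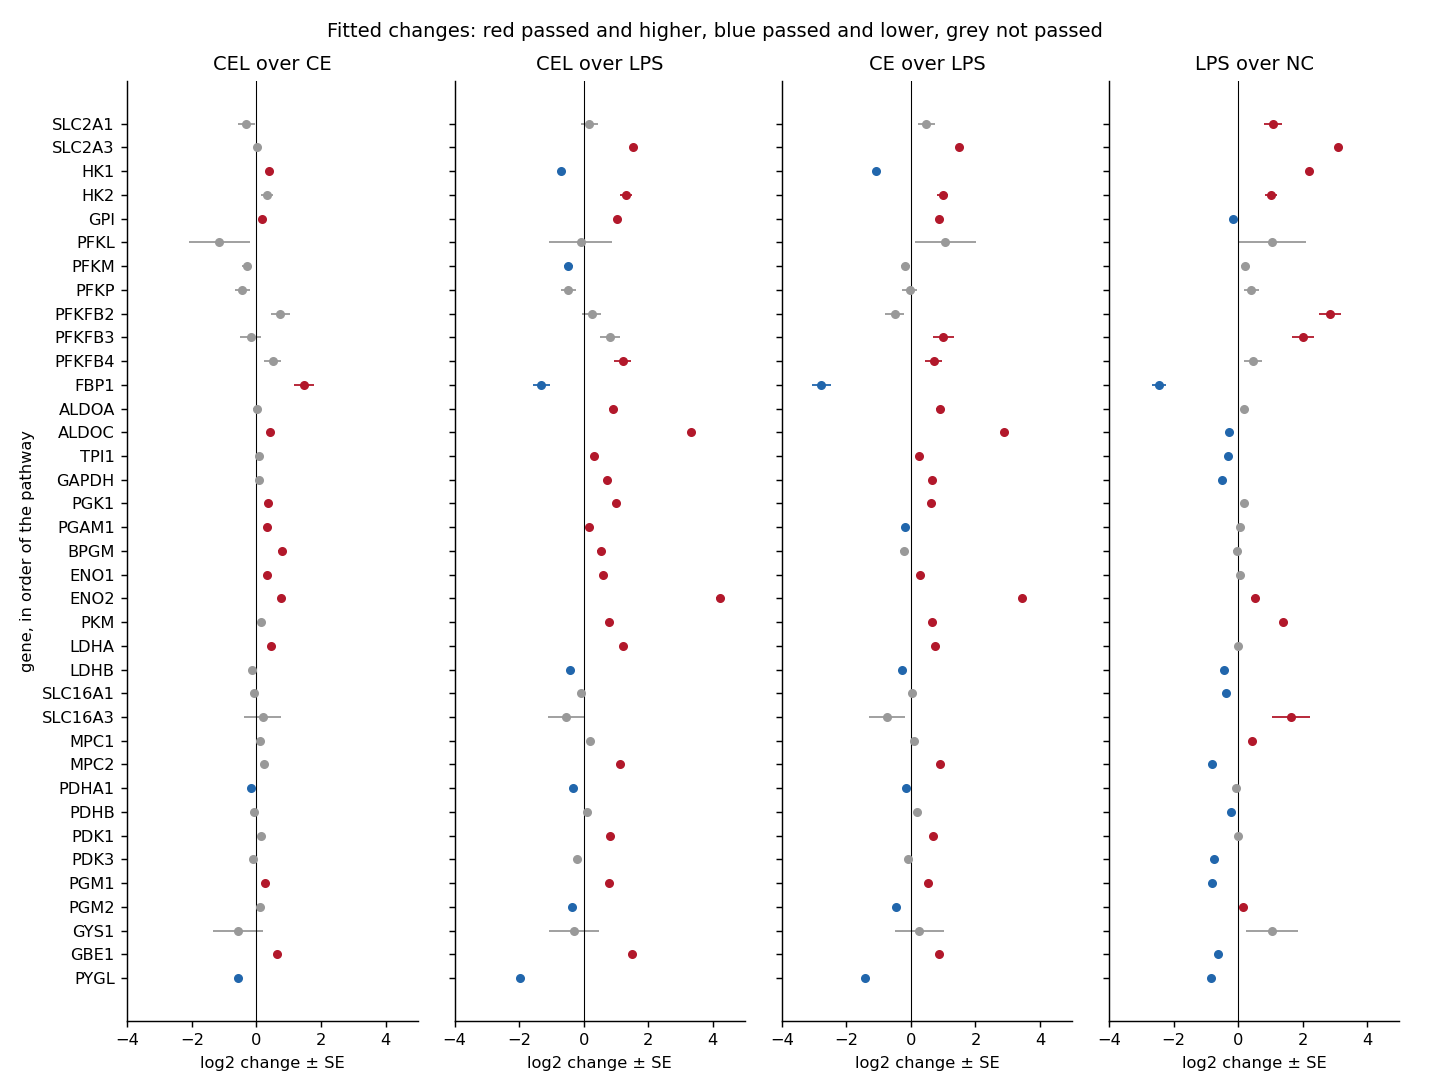
Log2 change of each member with its approximate standard error, in panels for CEL over CE, CEL over LPS, CE over LPS and LPS over NC, genes down the page by step. Red points passed and were higher, blue points passed and were lower, and grey points did not pass an edgeR adjusted p of 0.05. ENO2 at 3.45 and 4.21 and ALDOC at 2.88 and 3.31 lie farthest right in CE over LPS and CEL over LPS, and FBP1 and PYGL lie farthest left there.

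Lactate dehydrogenase is a tetramer of A and B chains, and the A chain is the one associated with lactate production. LDHA had 2947, 3152 and 3251 CPM in CEL, 2483, 2032 and 2267 in CE, 1347, 1382 and 1300 in LPS, and 1379, 1313 and 1353 in NC. CEL lay above CE and CE above LPS without overlap, and LPS and NC overlapped. LDHA rose by 0.75 ± 0.07 in CE over LPS (edgeR adjusted p = 7.18e-06), by 1.21 ± 0.08 in CEL over LPS (edgeR adjusted p = 1.13e-07) and by 0.46 ± 0.07 in CEL over CE (edgeR adjusted p = 0.00104). LPS over NC was -0.01 ± 0.07 (edgeR adjusted p = 0.958).

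LDHB had 573, 636 and 650 CPM in CEL, 760, 607 and 697 in CE, 847, 854 and 812 in LPS, and 1162, 1085 and 1132 in NC. CEL and CE overlapped below LPS, and LPS lay below NC. LDHB fell by 0.43 in LPS over NC, with a standard error of 0.08 (edgeR adjusted p = 0.000887), and by 0.44 in CEL over LPS, with a standard error of 0.08 (edgeR adjusted p = 0.000536). Its fall of 0.28 in CE over LPS (edgeR adjusted p = 0.01) was lost without LPS 2 (adjusted p = 0.066).

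Lactate leaves or enters the cell through SLC16A1 (MCT1) and SLC16A3 (MCT4). SLC16A1 had 204, 223 and 227 CPM in CEL, 245, 209 and 241 in CE, 231, 242 and 213 in LPS, and 308, 280 and 305 in NC. Every treated library lay below every NC library, and the treated groups overlapped. It fell by 0.38 in LPS over NC, with a standard error of 0.07 (edgeR adjusted p = 0.00113).

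SLC16A3, the carrier usually tied to lactate export, was low, with 2.51, 2.76 and 1.99 CPM in CEL, 0.837, 4.52 and 1.01 in CE, 3.24, 2.37 and 5.06 in LPS, and 0.955, 1.60 and 0.856 in NC. CE 2 lay within the LPS range, and CE 1 and CE 3 lay within the NC range or just below it. Its call in LPS over NC (1.64 ± 0.58, edgeR adjusted p = 0.0379) was lost without NC 1, NC 3, LPS 1 or LPS 3, with adjusted p = 0.117, 0.104, 0.0642 and 0.136. CE over LPS was -0.74 ± 0.55 (edgeR adjusted p = 0.3), and without CE 2 it was -1.93 (edgeR adjusted p = 0.0011). CEL over CE was 0.19 (edgeR adjusted p = 0.85), and without CE 2 it was 1.38 (edgeR adjusted p = 0.0195).

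The mitochondrial pyruvate carrier needs both MPC1 and MPC2. MPC2 had 62.8, 66.9 and 72.7 CPM in CEL, 63.0, 49.2 and 61.4 in CE, 30.6, 32.2 and 30.9 in LPS, and 57.2, 54.3 and 53.0 in NC. LPS lay below every other library. MPC2 fell by 0.81 in LPS over NC, with a standard error of 0.09 (edgeR adjusted p = 2.42e-05), and rose by 0.89 ± 0.09 in CE over LPS (edgeR adjusted p = 9.79e-06) and by 1.11 ± 0.09 in CEL over LPS (edgeR adjusted p = 1.19e-06). MPC1 had 79.0, 85.9 and 92.1 CPM in CEL, 85.6, 74.5 and 80.4 in CE, 77.3, 80.3 and 66.0 in LPS, and 55.2, 54.9 and 55.6 in NC, and rose by 0.43 ± 0.08 in LPS over NC (edgeR adjusted p = 0.00127).

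Pyruvate dehydrogenase kinases switch off the pyruvate dehydrogenase complex. PDK1, the hypoxia-inducible kinase, had 46.4, 43.0 and 41.9 CPM in CEL, 40.8, 38.2 and 41.1 in CE, 26, 25.1 and 24.2 in LPS, and 24.8, 24.3 and 25.8 in NC. Drug-treated libraries formed a high group, and LPS and NC a low group. It rose by 0.67 ± 0.06 in CE over LPS (edgeR adjusted p = 3.42e-06) and by 0.80 ± 0.06 in CEL over LPS (edgeR adjusted p = 5.87e-07). PDK3 had 13.3, 12.3 and 14.8 CPM in CEL, 13.2, 14.7 and 15.8 in CE, 15.3, 15.9 and 15.4 in LPS, and 25.5, 27.3 and 25.4 in NC, and fell by 0.74 in LPS over NC, with a standard error of 0.09 (edgeR adjusted p = 3.2e-05).

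PDHA1, the alpha subunit of the E1 enzyme on which those kinases act, had 73.7, 75.1 and 79.9 CPM in CEL, 91.9, 81.5 and 85.1 in CE, 98.5, 97.5 and 93.6 in LPS, and 102, 102 and 98.1 in NC. It fell by 0.34 in CEL over LPS, with a standard error of 0.05 (edgeR adjusted p = 0.000222). Its smaller falls in CE over LPS (-0.16, edgeR adjusted p = 0.0258) and CEL over CE (-0.18, edgeR adjusted p = 0.0352) were lost in 8 and 13 of 15 other settings, the first without LPS 1, LPS 2, CE 2 or CE 3 (adjusted p = 0.0831 to 0.123) and the second without CE 1, CE 3, CEL 1 or CEL 2 (adjusted p = 0.363 to 0.61). PDHB, the beta subunit, lay between 69.2 and 90.5 CPM throughout, and its fall of 0.23 in LPS over NC (edgeR adjusted p = 0.0366) did not pass with the batch block (edgeR adjusted p = 0.0637) or without any of NC 1, NC 3, LPS 1, LPS 2 and LPS 3 (adjusted p = 0.0709 to 0.134).

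Over LPS, PYGL fell and GBE1 rose in both drug-treated groups, while both genes fell in LPS over NC. PYGL, the glycogen phosphorylase that frees glucose 1-phosphate, on chromosome 14 at 50857891 to 50944736 of hg38, had 31.9, 34.5 and 36.1 CPM in CEL, 51.2, 47.6 and 52.4 in CE, 134, 133 and 137 in LPS, and 244, 237 and 245 in NC. CEL was lowest, followed upwards by CE, LPS and NC, with no overlap. PYGL fell by 0.84 in LPS over NC (SE 0.05, edgeR adjusted p = 1.21e-07), by 1.42 in CE over LPS (SE 0.05, edgeR adjusted p = 5.22e-09) and by 0.56 in CEL over CE (SE 0.05, edgeR adjusted p = 2.99e-05). In CEL over NC it was 7.08-fold lower.

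GBE1, the glycogen branching enzyme, on chromosome 3 at 81489699 to 81762161 of hg38, had 156, 160 and 180 CPM in CEL, 114, 95.8 and 110 in CE, 57.7, 60.9 and 55.2 in LPS, and 88.8, 90.3 and 90.8 in NC. LPS lay lowest and CEL highest, with no overlap. GBE1 fell by 0.63 in LPS over NC, with a standard error of 0.07 (edgeR adjusted p = 3.02e-05). It rose by 0.88 ± 0.07 in CE over LPS (edgeR adjusted p = 1.91e-06), by 1.51 ± 0.07 in CEL over LPS (edgeR adjusted p = 2.06e-08) and by 0.63 ± 0.07 in CEL over CE (edgeR adjusted p = 0.000124).

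GYS1, the muscle-type glycogen synthase, had 4.63, 2.96 and 1.67 CPM in CEL, 0.935, 11.4 and 1.54 in CE, 3.29, 2.37 and 5.86 in LPS, and 1.5, 2.51 and 1.54 in NC, and passed in no comparison. CE 2 was the highest library and CE 1 the lowest. CE over LPS was 0.26 ± 0.76 (edgeR adjusted p = 0.809) and became -1.62 without CE 2 (edgeR adjusted p = 0.0175).

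Phosphoglucomutase joins glycogen to glycolysis by converting glucose 1-phosphate and glucose 6-phosphate. PGM1 had 19, 18.6 and 20.5 CPM in CEL, 17.6, 15.4 and 15.1 in CE, 11.3, 10.9 and 11.4 in LPS, and 21.6, 17.8 and 19.4 in NC. It fell by 0.81 in LPS over NC, with a standard error of 0.09 (edgeR adjusted p = 2.14e-05), and rose by 0.79 ± 0.09 in CEL over LPS (edgeR adjusted p = 1.54e-05). PGM2, which prefers pentose phosphates, had 130, 138 and 147 CPM in CEL, 134, 119 and 131 in CE, 181, 183 and 170 in LPS, and 162, 156 and 162 in NC, and fell by 0.47 in CE over LPS, with a standard error of 0.06 (edgeR adjusted p = 3.58e-05). Its rise of 0.15 in LPS over NC (edgeR adjusted p = 0.0495) did not pass with the batch block (edgeR adjusted p = 0.0784) or without any of NC 1, NC 2, NC 3, LPS 1 and LPS 2 (adjusted p = 0.0998 to 0.304).

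To compare isoenzymes with each other, their share of the family's summed TPM, a level per transcript length, was taken in each library. Shares were tested by an exact two-sided permutation over libraries, which with 3 against 3 cannot go below 0.1. HK2 held 56.0, 52.7 and 51.1% of hexokinase TPM in CEL, 48.7, 59.3 and 54.8% in CE, 21.2, 22.8 and 22.1% in LPS, and 37.3, 39.7 and 38.3% in NC. HK2 was thus the larger hexokinase by share in 5 of the 6 drug-treated libraries, and the smaller in the LPS and NC libraries. The difference was 32.3 points in CE over LPS and -16.4 points in LPS over NC (exact permutation p = 0.1 each).

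LDHB held 17.7, 18.7 and 18% of lactate dehydrogenase TPM in CEL, 25.7, 24.5 and 25.9% in CE, 42.9, 42.0 and 42.3% in LPS, and 52.2, 49.3 and 50.1% in NC. The share was lower at each added treatment without overlap, with a difference of -8.15 points in LPS over NC, -17.1 points in CE over LPS and -7.24 points in CEL over CE (exact permutation p = 0.1 each). ALDOC held 10.5 ± 1.51% of aldolase TPM in CEL, 7.97 ± 1.37% in CE, 2.19 ± 0.367% in LPS and 2.68 ± 0.285% in NC (SD, n = 3). ENO2 remained a minor enolase at 0.812 ± 0.023% in CEL, 0.595 ± 0.062% in CE, 0.085 ± 0.028% in LPS and 0.054 ± 0.004% in NC, for all its fold change.

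PDK1 held 79.5 ± 2.58% of the TPM of PDK1 and PDK3 in CEL, 81.4 ± 1.65% in CE, 67.0 ± 4.40% in LPS and 58.8 ± 3.59% in NC (SD, n = 3). SLC2A3 held 26.5 ± 6.69% of the TPM of both glucose carriers in CEL, 25.4 ± 9.79% in CE, 14.5 ± 2.48% in LPS and 4.73 ± 0.514% in NC. CE and LPS overlapped for that share, with CE 2 at 14.1%. Of the summed TPM of GBE1 and PYGL, GBE1 held 78.7 ± 0.993% in CEL, 63.7 ± 2.11% in CE, 26.2 ± 1.19% in LPS and 23.7 ± 1.03% in NC, and the groups did not overlap.

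**Figure D5:**
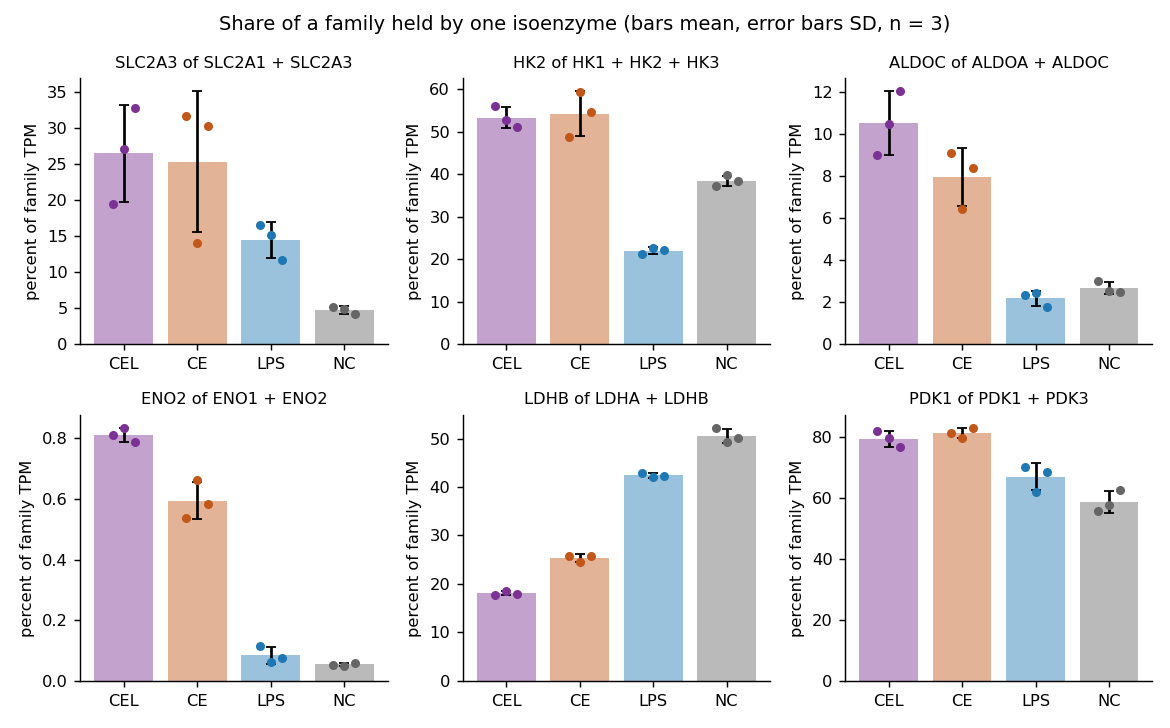
Share of a family's summed TPM held by the named isoenzyme in each library (points, percent) with the group mean (bar) and SD (error bar, n = 3), for CEL, CE, LPS and NC. The LDHB share is lowest in CEL and highest in NC, while the HK2 share is lowest in LPS and above 48% in every drug-treated library.

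The order of the most abundant members also changed. By mean TPM, LDHA was the highest member in CEL at 3374 ± 72.2, against 2314 ± 74.6 in CE, 1308 ± 252 in LPS and 1139 ± 202 in NC (SD, n = 3), where it ranked 4. GAPDH ranked 1 in CE, LPS and NC, although in LPS its 1570.4 ± 287 TPM and the 1565 ± 294 TPM of ENO1 do not differ beyond their spread. PKM ranked 4 in CEL and 9 in NC, and LDHB ranked 7 in CEL and 3 in NC. TPM ran low in NC 3 and LPS 1, where the members summed to 6570 and 7246, against 9417 to 9428 in the other NC libraries and 9841 to 10576 in the other LPS libraries.

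Set against untreated cells, the 2 drug-treated groups share the NC libraries with LPS over NC, so the values are given side by side. In CEL over NC 22 members rose and 7 fell, against 67.0% of all genes called, 34.0% higher and 33.0% lower, and upper quartile scaling gave 18 and 11. The groups were apart for 31 of 37 members, against 75.8% of all genes. In CE over NC 18 rose and 8 fell, against 64.0% called, 34.6% higher and 29.4% lower, and upper quartile scaling gave 16 and 12, and library size alone 17 and 12. There the groups were apart for 26 of 37, against 67.1% of all genes. The largest were ENO2 (4.72 ± 0.12 in CEL over NC, 3.96 ± 0.12 in CE over NC), SLC2A3 (4.64 ± 0.09 and 4.61 ± 0.09) and FBP1 (-3.76 ± 0.25 and -5.23 ± 0.28). PKM was 4.53-fold higher in CEL over NC and 4.10-fold higher in CE over NC. GAPDH and PGAM1 rose in CEL over NC by 0.23 and 0.22 under the main scaling and were at -0.02 and -0.03 with upper quartile scaling.

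Neighbouring pathways were read from 9 lists of 122 genes, chosen with earlier results of these data known. A list's excess over all genes is therefore a description, not a test. Of the 12 tested hypoxia targets outside glycolysis, 10 rose and 0 fell in both CE over LPS and CEL over LPS, 7 rose and 0 fell in CEL over CE, and 8 rose and 1 fell in LPS over NC. The shares that rose were 83.3%, 83.3%, 58.3% and 66.7%, against 28.8%, 28.7%, 8.78% and 22.4% of all tested genes in the same comparisons. BNIP3, a mitophagy receptor, averaged 302 ± 15.5 CPM in CEL, 191 ± 14.1 in CE and 55.6 ± 5.89 in LPS (SD, n = 3). BNIP3L, its paralogue, averaged 353 ± 16.3 CPM in CEL, 208 ± 19.4 in CE and 40.5 ± 3.09 in LPS. KDM3A, a histone demethylase, averaged 285 ± 16 CPM in CEL, 213 ± 7.68 in CE and 71.4 ± 3.19 in LPS. All 3 changes over LPS passed in both drug-treated groups.

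Among 11 tested regulators of glycolytic transcription, 4 rose and 0 fell in CE over LPS, and 6 rose and 1 fell in CEL over LPS. That is 36.4% called in CE over LPS, below the 49.6% of all genes, and 63.6% in CEL over LPS, against 55.9%. Rises alone were 36.4% and 54.5%, against 28.8% and 28.7% of all genes. HIF1A, the oxygen-regulated subunit of hypoxia-inducible factor, averaged 424 ± 32.7 CPM in CEL, 387 ± 29.7 in CE, 314 ± 18.4 in LPS and 138 ± 2.81 in NC. It rose by 1.19 ± 0.07 in LPS over NC (edgeR adjusted p = 9.13e-08), by 0.30 ± 0.07 in CE over LPS (edgeR adjusted p = 0.00349) and by 0.43 ± 0.07 in CEL over LPS (edgeR adjusted p = 0.000229). TXNIP, a glucose-responsive brake on glucose uptake, averaged 1621 ± 78.8 CPM in CEL, 1156 ± 100.2 in CE, 526 ± 25.7 in LPS and 388 ± 13.2 in NC, and rose in LPS over NC, CE over LPS and CEL over CE, by 1.14 ± 0.07 in CE over LPS (edgeR adjusted p = 1.59e-07).

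Of 17 tested genes of the tricarboxylic acid cycle, 10 rose and 0 fell in CE over LPS, 10 rose and 1 fell in CEL over LPS, and 0 rose and 1 fell in CEL over CE. The shares called were 58.8% in CE over LPS and 64.7% in CEL over LPS, against 49.6% and 55.9% of all genes. In CEL over CE 5.88% was below 23.6%. Rises alone made up 58.8% in both CE over LPS and CEL over LPS, against 28.8% and 28.7% of all genes. The sizes were small, such as 0.37 ± 0.05 for citrate synthase (CS, 520 ± 34.3 CPM in CE and 403 ± 8.03 in LPS). Of 8 other genes of the pyruvate dehydrogenase complex and its regulators, 50% were called in CE over LPS, against 49.6% of all genes. Rises alone were 50%, against 28.8%. In that comparison 0 of these genes fell and 4 rose. They were PDHX, a structural subunit (113 ± 10.4 CPM in CE and 80.6 ± 2.39 in LPS), PDP1 and PDPR, a phosphatase that switches the complex on and its regulator, and PDK4, a kinase that switches it off (1.49 ± 0.268 CPM in CE and 0.575 ± 0.0876 in LPS). Of 11 pentose phosphate genes, 4 rose and 1 fell in CE over LPS, or 45.5% called against 49.6% of all genes. Rises alone were 36.4%, against 28.8%. PGD, which makes NADPH in that pathway, averaged 856 ± 44.9 CPM in CEL, 761 ± 59.9 in CE, 451 ± 10.9 in LPS and 303 ± 10.4 in NC.

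Of 16 other tested glycogen genes, 8 rose and 2 fell in CE over LPS, and 6 rose and 2 fell in CEL over LPS. That is 62.5% called in CE over LPS, against 49.6% of all genes, and 50% in CEL over LPS, below 55.9%. Rises alone were 50% and 37.5%, against 28.8% and 28.7% of all genes. PPP1R3B, which targets a phosphatase to glycogen, averaged 38.2 ± 0.643 CPM in CEL, 32.6 ± 0.721 in CE and 18.7 ± 1.34 in LPS. STBD1, a glycogen-binding protein, averaged 26.6 ± 0.214 CPM in CEL, 21.7 ± 0.513 in CE and 13.5 ± 0.612 in LPS. Of 9 other carriers, 1 rose and 2 fell in CE over LPS, or 33.3% called against 49.6%. EMB, an accessory protein of the lactate carriers, averaged 179 ± 8.02 CPM in CEL, 299 ± 15.2 in CE, 496 ± 57.4 in LPS and 1840 ± 49.6 in NC. SLC2A5, the fructose carrier, rose by 1.27 ± 0.08 in CEL over CE (edgeR adjusted p = 1.76e-06), at 43.5 ± 2.24 CPM in CEL and 18 ± 1.76 in CE. Of 5 other glycolytic isoenzymes 1 rose and 0 fell in CE over LPS, and of 3 other gluconeogenesis genes 0 rose and 1 fell, or 20% and 33.3% called against 49.6%. In CEL over LPS the isoenzymes had 1 rise and 1 fall, or 40% called against 55.9% of all genes. There 2 of the 3 gluconeogenesis genes fell, or 66.7%. All 3 fell in CEL over NC, where 67.0% of all genes were called and 33.0% were lower.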

How the data were processed

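RNA of 12 THP-1 libraries was sequenced after oligo-dT capture, per the labels' protocols. The authors deposited estimated counts (29.3% of nonzero values are not whole within 0.005) and TPM per gene, on hg38 per the submitters' processing notes. The aligner, counting tool and strand setting are not stated in any source at hand, so reads of overlapping or antisense genes cannot be told apart. All 12 columns per table were matched to samples by group name and number, CE as the remaining treated group, and 0 columns were left over.

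Counts were rounded and fitted in edgeR 4.0.16 (R 4.3.3) with filterByExpr, TMM factors and a quasi-likelihood F-test, two-sided, on group over all 12 libraries, adjusted by Benjamini and Hochberg over 14065 genes, with a threshold of 0.05. The common dispersion was 0.0405. The approximate standard error is the log2 change divided by the square root of F. Alternatives were other scalings, no low-count filter, DESeq2 1.42.0, limma 3.58.1 on log2(TPM + 1) and log2(TPM + 0.1), a batch block, leaving out each library, and a GC offset chosen after seeing the data. The script was tested on simulated data.

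Members and lists were chosen with earlier results of these data known. All 38 members are named, with up to 3 called genes of each list by smallest p. The p-values cover only variation between these libraries, which may be technical.

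The labels give the replicate number as a batch. It entered as a block pairing the samples in 1 alternative, while the main fit used group alone. Among 18 same-numbered pairs the deviations from group means, over 7460 genes, correlated with r over 0.1 in 6 (range -0.86 to 0.73).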

Additional observations from a re-analysis of the deposited data

How the results depend on the processing

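The changes of SLC2A3, HK2, PKM and PYGL in LPS over NC, CE over LPS and CEL over LPS, and those of ENO2, ALDOC, LDHA, PGK1 and GBE1 in CE over LPS and CEL over LPS, kept direction and call in all 15 alternatives. Over all single-gene results, 2956 of 3306 counted as unchanged, 260 lost the call, 79 gained it and 11 reversed. A change of sign where neither fit passed counted as unchanged, as for PFKL in CE over LPS, which ran from -1.09 to 1.78. With limma on log2(TPM + 1) and log2(TPM + 0.1), members called in LPS over NC were 7 and 8 higher and 4 and 4 lower. Higher members were 13 and 13 in CE over LPS and 17 and 16 in CEL over LPS. They were 15 and 16 in CE over NC and 21 and 21 in CEL over NC. Lower members were 3 and 3 in CE over LPS, CEL over LPS, CE over NC and CEL over NC. In CEL over CE 2 and 2 were higher and 0 and 0 lower. The GC offset gave 8 lower in LPS over NC. Without the low-count filter 5 were higher in CEL over CE and 3 lower. Members lower in CEL over CE were 1 with relative log expression, upper quartile or library size scaling and with DESeq2, and members lower in CEL over NC were 11 with upper quartile scaling.

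With the replicate block, the pairing left 18 higher and 7 lower in CE over LPS, 19 and 7 in CEL over LPS, 10 and 12 in LPS over NC, 10 and 1 in CEL over CE, 18 and 8 in CE over NC and 22 and 7 in CEL over NC, and it changed no other call than those given in the report.

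Leaving out 1 library at a time gave 8 to 10 higher and 11 to 12 lower members in LPS over NC, 14 to 17 and 4 to 8 in CE over LPS, 18 to 19 and 7 to 8 in CEL over LPS, 9 to 13 and 1 to 3 in CEL over CE, 17 to 20 and 7 to 11 in CE over NC, and 20 to 22 and 6 to 7 in CEL over NC. Reversals were GYS1 in CE over LPS without CE 2 (its values leaving out 1 library ran from -1.62 to 0.72), GBE1 in CE over NC (-0.037), and TPI1 (-0.23), GAPDH (-0.018) and PGAM1 (-0.027) in CEL over NC with upper quartile scaling, and, in both limma fits, PDHA1 in CE over NC (0.039 and 0.040) and CEL over NC (0.021 and 0.021) and PGM2 in CEL over NC (0.13 and 0.13). The cause of these was not tested. The low-count filter kept HK3, at or below 0.755 CPM, out of the main fit, so no call is given for it and a difference in it could be missed.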
